A study of Mus musculus with 8 samples.

Results

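The Trim12 and Trim30 gene cluster of mouse chromosome 7 was described in developing T cells of 2 mouse strains. The genes were taken from a list of 10 chromosome 7 Trim symbols (Trim12a, Trim12c, Trim5, Trim30a, Trim30b, Trim30c, Trim30d, Trim34a, Trim21 and Trim6), and every listed symbol that occurs in the count files was kept. That gave 8 genes of the 23420 symbols counted. Trim5 and Trim30c were not found in the files, so their levels are not analysed here. The libraries came from wild-type mice that the labels call B6 and BALB, with no substrain, age or sex given. Each strain gave sorted DP cells and whole thymocytes, and each of these 4 groups has 2 RNA libraries. DP cells are the CD4+ CD8+ stage of T cell development, and the sort kept cells that lacked CD69 and stained at low or intermediate level with H57, which binds the beta chain of the T cell receptor. Whole thymocytes mix every stage and can include non-T cells of the thymus.

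TRIM proteins share a RING domain, a B-box and a coiled coil, and many act as E3 ubiquitin ligases. Primate TRIM5 blocks retroviruses by binding the incoming capsid, and rodents carry several related copies of it, the Trim12 and Trim30 genes among them. Many genes of the family respond to interferon. Mouse Trim30a lowers NF-kappa-B signalling by driving the loss of TAB2 and TAB3, and Trim21 is the cytosolic antibody receptor that sends antibody-coated particles to the proteasome. The number of gene copies in this cluster can differ between mouse strains.

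All positions are in mm10, which is GRCm38 and the sequence of the B6 strain, with gene bounds from GENCODE M21. Trim21 lies apart from the others, on the minus strand of chromosome 7 from 102557921 to 102565486. Trim6 (104218793 to 104235152) and Trim34a (104244457 to 104262234) lie on the plus strand. Trim12a (104299894 to 104315466), Trim12c (104338754 to 104353362), Trim30b (104355382 to 104369884), Trim30a (104409025 to 104465193) and Trim30d (104470014 to 104507849) follow on the minus strand.

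The copies resemble each other closely, and this limits what a read count of one of them can say. In GENCODE's longest complete coding sequences, Trim12a and Trim12c were identical at 96.3% of the 894 bases aligned without a gap, where Trim12a is 894 bases long and Trim12c 1494. Trim30a and Trim30d were identical at 90.2% of 1491 bases. The first 150 coding bases of both pairs are shown because the strain difference separates the members of each pair, and capitals mark the bases at which a pair differs.
Trim12a: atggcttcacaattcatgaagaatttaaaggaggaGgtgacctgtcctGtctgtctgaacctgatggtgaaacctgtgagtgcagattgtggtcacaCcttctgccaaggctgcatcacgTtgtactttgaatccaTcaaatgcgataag
Trim12c: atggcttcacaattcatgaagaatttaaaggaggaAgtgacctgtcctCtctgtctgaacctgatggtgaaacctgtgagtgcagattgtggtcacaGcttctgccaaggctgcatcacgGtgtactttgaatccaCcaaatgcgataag
Trim30a: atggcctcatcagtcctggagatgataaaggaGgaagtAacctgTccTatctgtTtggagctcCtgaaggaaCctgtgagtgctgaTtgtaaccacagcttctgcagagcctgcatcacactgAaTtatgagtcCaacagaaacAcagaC
Trim30d: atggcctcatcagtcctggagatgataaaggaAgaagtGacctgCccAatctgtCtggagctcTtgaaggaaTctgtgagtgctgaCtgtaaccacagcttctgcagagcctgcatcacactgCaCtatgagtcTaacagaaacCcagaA
The Trim12 pair differs at 5 of these bases and the Trim30 pair at 13. Over whole transcripts, 89.5% of the distinct 50-base stretches of Trim12a occur in the transcripts of no other gene, against 66.3% for Trim12c, 94.0% for Trim30a, 92.5% for Trim30d and 40.3% for Trim34a. Most stretches of Trim34a that are not its own occur in Trim34b, and the aligned coding sequences of those 2 genes were 98.2% identical. The read length is not given in the sources used here, and 50 bases were chosen for this description. Reads that match several copies were set aside by the counting, so the shared stretches of a gene add little to its count. A gene whose BALB copy is missing, is not transcribed or differs from mm10 so much that its reads go elsewhere gives the same low count, and these cannot be told apart from the files. The library kit does not keep the strand, and reads over Gm15133, which overlaps Trim12a and had at most 3 counts in a library, cannot be separated by strand.

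The files held 2632083 to 5974684 counts in genes per library. The marker genes of DP thymocytes, Rag1 and Cd4 among them, summed to 20000 to 20900 CPM (a gene's share of a library's counts, scaled to parts per 1e+06) in B6 DP and 12900 to 13000 in BALB DP. Their sums were 12300 to 12800 in B6 whole and 8940 to 9550 in BALB whole thymocytes. Rag1 weighs most in these sums, with 9860 to 10500 CPM in B6 DP and 4810 to 4840 in BALB DP. Of the 8 markers, 4 were lower in BALB DP in edgeR (adjusted p under 0.05), where 6.14% of all genes were. The other 4, Cd4, Cd8a, Cd8b1 and Rag2, did not pass, and Cd8a had 1830 to 1910 CPM in B6 DP and 1700 in BALB DP. S1pr1, the egress receptor of mature thymocytes, had 0 counts in B6 DP and 1 in BALB DP. BALB DP replicate 1 had 3.14% of its counts in Rn45s, a ribosomal RNA precursor, against 5.11% to 8.35% in the others, and BALB whole replicate 1 had 12313 counts of Xist and 0 of Ddx3y, against 6 to 203 and 444 to 1177 in the others. Values of the members are given without these libraries where a call changes, and so are those of other named genes whose fold or call moved. The labels do not say that replicates came from separate mice, so p-values measure the spread between these libraries, which may be technical. Library sizes in all CPM values include edgeR's TMM factors, errors of CPM are SD over 2 libraries, and intervals cover counting error only.

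**Figure D1:**
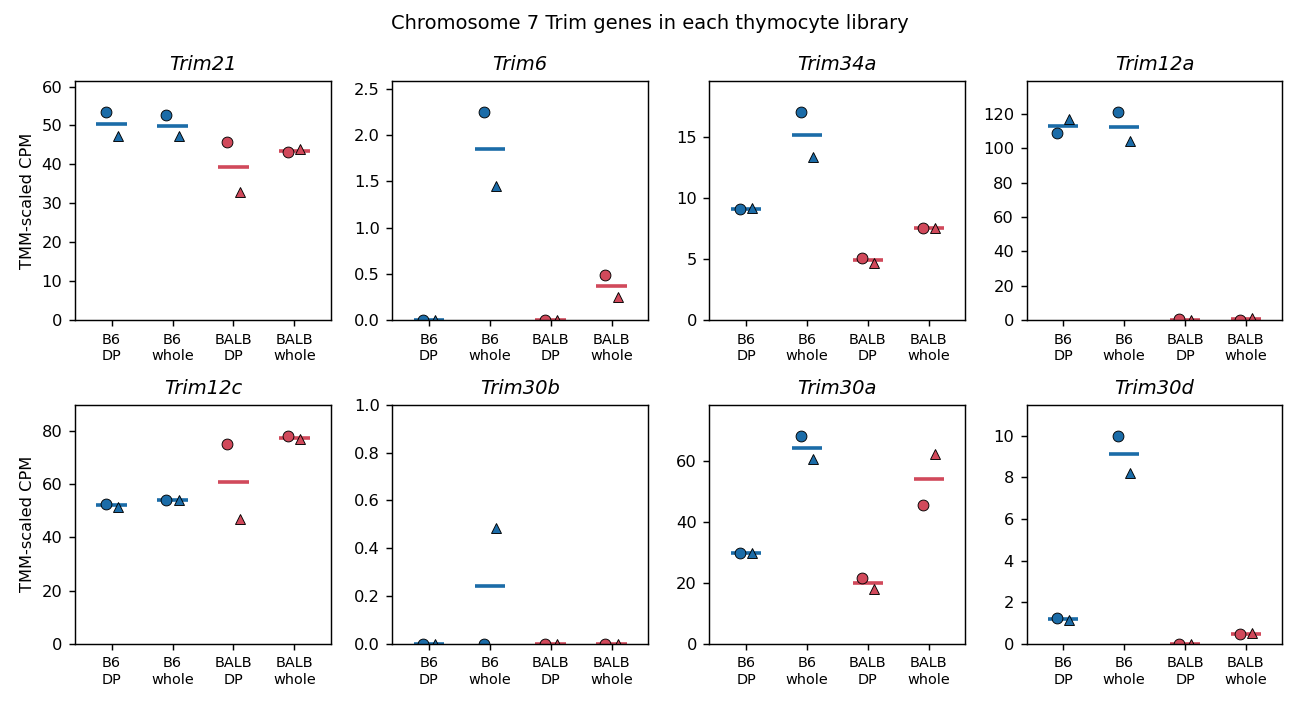
TMM-scaled CPM of the 8 Trim genes found in the files (y axis, linear, own range per gene) in B6 DP, B6 whole, BALB DP and BALB whole libraries (x axis). Circles are replicate 1, triangles replicate 2 and lines the mean of 2 libraries. Trim12a is at 104 to 121 CPM in the 4 B6 libraries and at 0 to 0.999 CPM in the 4 BALB libraries.

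The first question was whether the 2 strains transcribe the cluster alike. Trim12a, a short member of the Trim12 group, was one of the most abundant cluster genes in B6 and close to absent in BALB. It had 109 and 117 CPM in the B6 DP libraries and 121 and 104 CPM in the B6 whole libraries, from 347 to 514 counts each. The BALB DP libraries held 2 and 0 counts of it (0.350 and 0 CPM) and the BALB whole libraries 1 and 4 counts (0.242 and 0.999 CPM). Every B6 library lay far above every BALB library, with no overlap in either population. As a ratio of scaled counts, the level in BALB DP was 472-fold below that in B6 DP (95% counting interval 130 to 3900). That ratio rests on 2 BALB DP counts. The quasi-likelihood test of edgeR, adjusted by Benjamini-Hochberg over the 11409 genes tested, gave an adjusted p of 5.70e-08 for the DP difference. In whole thymocytes the log2 fold change of edgeR was −7.45 ± 0.31 (SE, adjusted p = 6.68e-08), or 175-fold lower in BALB. The ratio of scaled counts there was 183-fold (95% counting interval 78.2 to 566). The call held in all 16 alternatives in which it was tested, in both populations.

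Trim12c, its nearest tested copy, which in mice has been linked to TRAF6 and interferon induction, did not follow it. Its CPM were 52.7 and 51.6 in B6 DP, 75.0 and 47.0 in BALB DP, 54.2 and 53.9 in B6 whole and 78.2 and 76.9 in BALB whole libraries. Both BALB whole libraries were above both B6 whole libraries, while the BALB DP libraries lay on either side of the B6 DP ones. The log2 difference of BALB over B6 was 0.52 ± 0.18 in whole thymocytes (adjusted p = 0.163) and 0.26 ± 0.18 in DP thymocytes (adjusted p = 0.384), so neither passed. Without BALB DP replicate 1 the DP difference was −0.15 and without BALB DP replicate 2 it was 0.54 (adjusted p = 0.00308, range over 16 alternatives 0.00308 to 0.646), so its direction rests on 1 library. In whole thymocytes the higher level in BALB passed in 5 of 16 alternatives (adjusted p 0.00501 to 0.576), among them those without BALB DP replicate 1 (0.0056) and without BALB DP replicate 2 (0.00501). Summed, the reads of Trim12a and Trim12c were 162 and 169 CPM in B6 DP and 75.3 and 47.0 CPM in BALB DP. The sums were 175 and 158 CPM in B6 whole and 78.5 and 77.9 CPM in BALB whole thymocytes. The sum fell in BALB in DP (log2 −1.40 ± 0.17, adjusted p = 0.000301) and in whole thymocytes (−1.09 ± 0.17, adjusted p = 0.00224). Trim12a made up 66% to 69.5% of the summed reads in B6 libraries and 0% to 1.28% in BALB libraries. The lower sum in BALB thus largely restates the difference of Trim12a and is no separate result.

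Trim30d, at the far end of the cluster, was the other tested gene that was lower in BALB in both populations. B6 whole libraries held 40 and 34 counts of it (10 and 8.22 CPM) and B6 DP libraries 4 and 5 (1.26 and 1.14 CPM). BALB whole libraries held 2 and 2 counts and BALB DP libraries none. The groups did not overlap in either population. In whole thymocytes it was 17.5-fold lower in BALB (log2 −4.13 ± 0.49, adjusted p = 0.000499). In DP thymocytes it was at least 3.29-fold lower, against a floor of 3 counts over both BALB libraries (adjusted p = 0.0221). That DP call rests on 9 counts and was lost without B6 DP replicate 1 or 2, B6 whole replicate 1 or 2, or BALB DP replicate 1 (adjusted p 0.0520 to 0.176), and in DESeq2 (0.0528). It held in 7 of 14 alternatives, with adjusted p from 0.00626 to 0.176.

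Trim30a, its close copy and the better known NF-kappa-B regulator, was present in both strains. B6 DP libraries had 29.8 and 29.9 CPM and BALB DP libraries 21.7 and 17.9, while whole libraries had 68.2 and 60.5 CPM in B6 and 45.6 and 62.2 in BALB. The strains were apart in DP and overlapped in whole thymocytes. The log2 difference was −0.57 ± 0.20 in DP (adjusted p = 0.0800) and −0.26 ± 0.17 in whole thymocytes (adjusted p = 0.585), so neither passed. The DP difference passed without BALB DP replicate 1 and BALB whole replicate 1 together (−0.75, adjusted p = 0.0266) and with no filter on low counts (−0.57, adjusted p = 0.0398), over a range of 0.0266 to 0.276 in 16 alternatives. In the B6 whole libraries Trim30d made up 12.8% (95% Clopper-Pearson interval 9.29 to 17.0) and 11.9% (8.38 to 16.2) of the reads of Trim30a, Trim30b and Trim30d together. In BALB whole libraries it made up 1.05% (0.127 to 3.73) and 0.797% (0.0966 to 2.85). The strain difference in the summed Trim30 reads did not pass (−0.62 ± 0.20 in DP, adjusted p = 0.0572, and −0.44 ± 0.17 in whole thymocytes, adjusted p = 0.218).

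Trim34a was lower in BALB and is the member whose count is hardest to tell from a copy. It had 9.10 and 9.14 CPM in B6 DP, 5.08 and 4.66 in BALB DP, 17.0 and 13.3 in B6 whole and 7.49 and 7.49 in BALB whole libraries. The strains did not overlap in either population. The difference passed in whole thymocytes (log2 −1.01 ± 0.24, adjusted p = 0.0330) and not in DP (−0.88 ± 0.28, adjusted p = 0.0584). The whole thymocyte call was lost without any one of the B6 DP, B6 whole and BALB whole libraries (adjusted p 0.0538 to 0.340) and in DESeq2 (0.243). It held in 9 of 17 alternatives, with adjusted p from 0.00872 to 0.489. Trim34b, which is not on the list, had 5 counts over B6 DP, 21 over BALB DP, 8 over B6 whole and 35 over BALB whole libraries. With both copies summed, an alternative chosen after the counts were seen, the whole thymocyte difference was −0.45 ± 0.25 (adjusted p = 0.489), and the call ended. Trim34b made up 16.2% to 49.2% of the summed reads in BALB libraries and 1.45% to 11.3% in B6 libraries.

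Trim21, the antibody receptor, was measured at 33.0 to 53.4 CPM over all libraries. Its CPM were 53.4 and 47.3 in B6 DP, 45.7 and 33.0 in BALB DP, 52.7 and 47.2 in B6 whole and 43.2 and 43.9 in BALB whole libraries. BALB was below B6 in both populations without overlap, by log2 −0.32 ± 0.17 in DP (adjusted p = 0.241) and −0.20 ± 0.17 in whole thymocytes (adjusted p = 0.718), and neither passed. Without BALB DP replicate 1 the DP difference was −0.60 and passed (adjusted p = 0.0477, range over 17 alternatives 0.0299 to 0.605).

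Trim6 and Trim30b had too few counts for the test. Trim6, a ligase that in human cells aids interferon signalling, had 9 and 6 counts in B6 whole, 2 and 1 in BALB whole and 0 in all DP libraries. Its ratio of B6 over BALB in whole thymocytes was 5.01 (95% counting interval 1.42 to 27.0). Trim30b had 2 counts in B6 whole replicate 2 and 0 in every other library, where 3 counts over a group would be 0.362 to 0.397 CPM.

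Over the cluster, 2 of the 6 genes tested were lower in BALB DP thymocytes and 0 higher, where 13% of all genes tested were called (6.14% lower and 6.85% higher). In whole thymocytes 3 of 6 were lower and 0 higher, where 4.59% were called (2.61% lower and 1.98% higher). The median log2 difference of the 6 was −0.72 in DP and −0.64 in whole thymocytes, against 0.003 and 0.018 over all genes. Without Trim12a and Trim30d the medians were −0.44 and −0.23 over 4 members. Trim12a and Trim30d passed the filter on low counts through their B6 libraries alone, so these counts and medians describe the members and carry no test. Of 12 tested neighbour genes within 500 kb of the outermost listed genes, 1 was lower in BALB DP, Art1 (−2.07 ± 0.31, adjusted p = 0.00127), an ADP-ribosyltransferase gene beyond Trim21 that overlaps Art5 and Chrna10 on the other strand, and 1 higher, Rrm1, a ribonucleotide reductase subunit (0.54 ± 0.13, adjusted p = 0.0154). Art1 passed in 16 of 16 alternatives, and Rrm1 in 14 of 17 (adjusted p 4.12e-05 to 0.168), losing its call without B6 DP replicate 1 (0.0614) or 2 (0.168). In whole thymocytes 0 of the 12 passed in edgeR, DESeq2 or limma-voom, and 4 had an unadjusted p under 0.05 in edgeR, Trim34b among them (2.10 ± 0.81, adjusted p = 0.231).

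**Figure D2:**
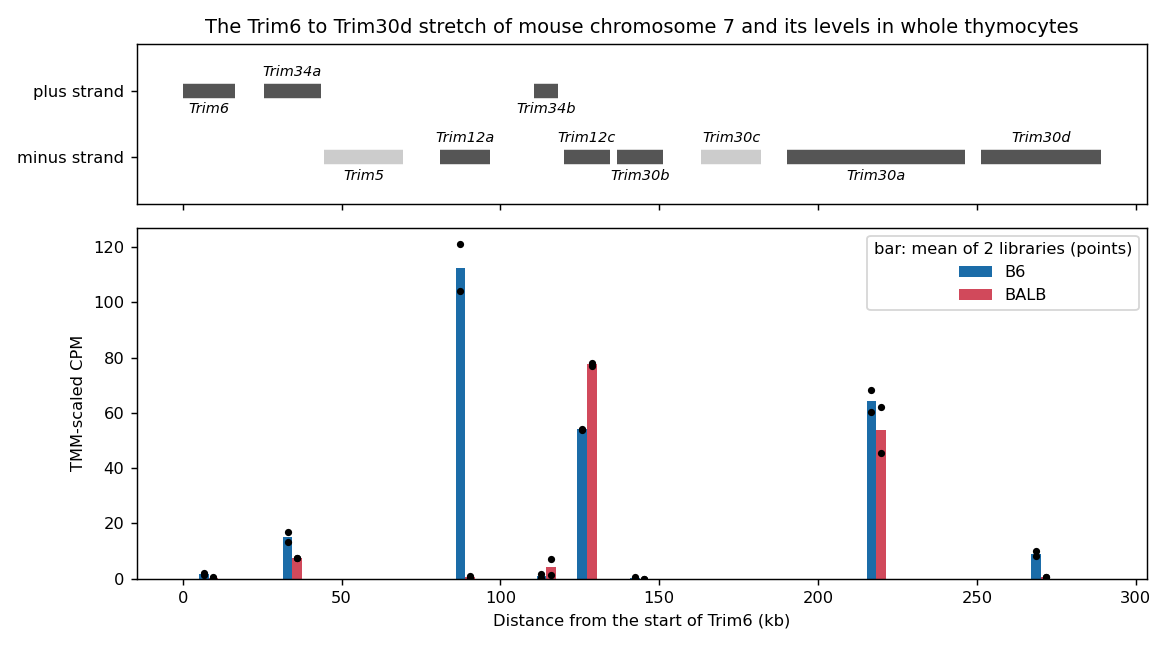
Top, gene bodies from Trim6 to Trim30d by strand against distance from the start of Trim6 in kb, in dark grey where the gene is in the count files and light grey where it was not found (Trim5, Trim30c). Bottom, mean TMM-scaled CPM in whole thymocytes (bars from 0, points the 2 libraries) for B6 and BALB, with bars beside each gene's midpoint. Trim12a and Trim30d, with 113 and 9.11 CPM in B6 and 0.620 and 0.491 CPM in BALB, lie on either side of Trim12c and Trim30a, which have reads in both strains, while the means of Trim6 and Trim30b are under 2 CPM in both.

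**Figure D3:**
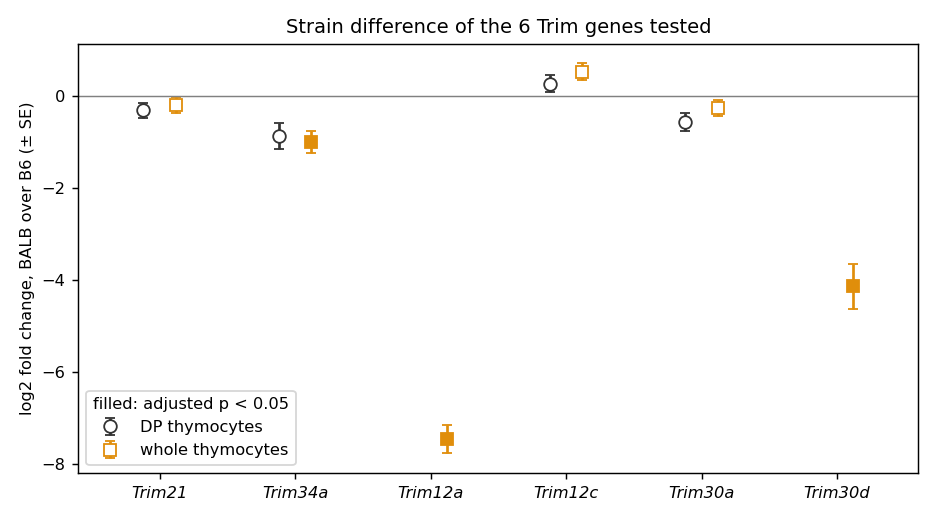
Log2 fold change of BALB over B6 (y axis) with its SE for the Trim genes tested (x axis), in DP (circles) and whole thymocytes (squares), filled where the adjusted p is under 0.05. Points are left out where a group holds 3 counts or fewer, which are Trim12a and Trim30d in DP. Trim12a is at −7.45 and Trim30d at −4.13 in whole thymocytes, and the other values lie between −1.01 and 0.52.

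The second question was how the cluster differs between sorted DP thymocytes and whole thymocytes. Trim30a was higher in whole thymocytes of both strains. In B6 it went from 29.9 ± 0.0804 to 64.4 ± 5.49 CPM (n = 2 each), 2.15-fold (log2 1.11 ± 0.18, adjusted p = 0.00242). In BALB it went from 19.8 ± 2.73 to 53.9 ± 11.7 CPM, 2.67-fold (log2 1.42 ± 0.19, adjusted p = 0.000389). Whole and DP libraries did not overlap in either strain, and both calls held in all 16 alternatives.

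Trim30d rose with it in B6, by 7.47-fold (log2 2.90 ± 0.42, adjusted p = 0.00178), from 9 counts over both DP libraries to 74 over both whole libraries. In BALB the 4 counts in whole against 0 in DP libraries gave no call (adjusted p = 0.0901). Trim34a went from 9.12 ± 0.0263 to 15.2 ± 2.61 CPM in B6 (0.73 ± 0.24, adjusted p = 0.0774) and from 4.87 ± 0.298 to 7.49 ± 0.00197 CPM in BALB (0.60 ± 0.28, adjusted p = 0.175), without overlap and without passing. In B6 that change passed without BALB DP replicate 1 or 2 (0.74 in each, adjusted p 0.0432 and 0.0442, range over 17 alternatives 0.0286 to 0.449). Trim6 was at least 4.65-fold higher in B6 whole than in B6 DP thymocytes, with 15 counts against 0 over each pair of libraries and a floor of 3 counts over the DP group, and was not tested.

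The Trim12 genes and Trim21 did not pass in this comparison. In B6 the log2 change from DP to whole thymocytes was −0.01 ± 0.16 for Trim12a (adjusted p = 0.984), 0.05 ± 0.18 for Trim12c (0.908) and −0.01 ± 0.17 for Trim21 (0.987). Trim12a thus had 113 ± 6.03 CPM in the sorted and 113 ± 11.5 CPM in the whole thymocytes of B6. In BALB the change was 0.31 ± 0.18 for Trim12c (adjusted p = 0.255) and 0.12 ± 0.17 for Trim21 (0.688). Without BALB DP replicate 1, the change of Trim12c in BALB was 0.72 and passed (adjusted p = 0.00376, range over 16 alternatives 0.00376 to 0.906).

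**Figure D4:**
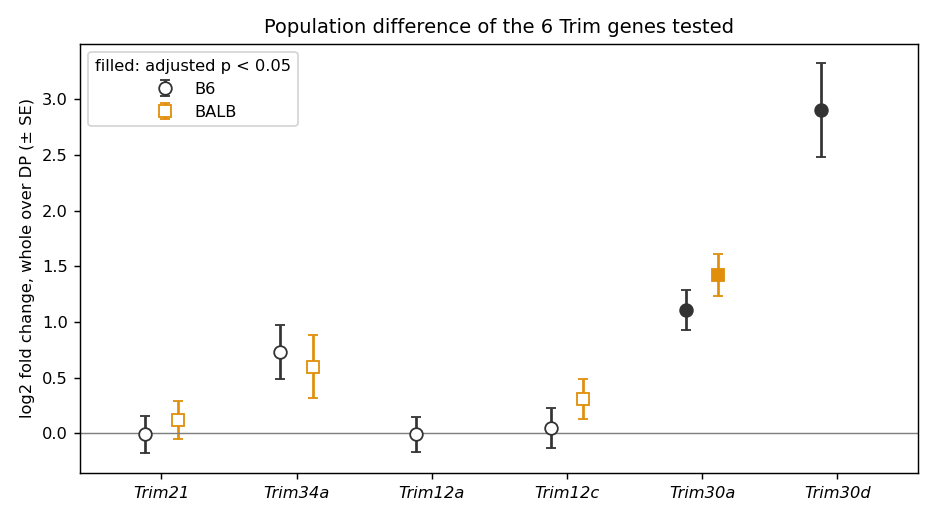
Log2 fold change of whole over DP thymocytes (y axis) with its SE for the Trim genes tested (x axis), in B6 (circles) and BALB (squares), filled where the adjusted p is under 0.05. Points are left out where a group holds 3 counts or fewer, which are Trim12a and Trim30d in BALB. Trim30a is filled in both strains at 1.11 and 1.42, and Trim21 and Trim12c lie between −0.01 and 0.31.

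In B6, 2 of the 6 members rose in whole thymocytes and 0 fell, where 10.2% of all genes were called (6.89% higher and 3.27% lower). Trim30d, 1 of these 2, passed the filter on low counts through its B6 whole libraries alone, so this count carries no test. In BALB 1 rose and 0 fell, where 17.2% were called (10.6% higher and 6.59% lower). Median changes were 0.39 and 0.92, against 0.002 and −0.004 over all genes. Without Trim12a and Trim30d, which had at most 5 counts over a BALB group, they were 0.39 and 0.46 over 4 members, and they carry no test. Other cell types move with this comparison. The 13 myeloid and dendritic cell markers found, Cd74 and Itgax among them, summed to 23.9 to 37.5 CPM in B6 DP and 193 to 212 in B6 whole libraries, and to 21.4 to 31.5 and 225 to 240 CPM in BALB, with Itgax, Flt3 and Batf3 at 0 in B6 DP and Batf3 at 0 in BALB DP. The 8 mature thymocyte markers summed to 98.6 to 99.9 CPM in B6 DP and 389 to 450 in B6 whole libraries, and to 106 in both BALB DP and 545 to 573 in BALB whole libraries. The 7 B cell markers summed to 10.4 to 11.4 and 22.5 to 26.5 CPM in B6 DP and whole libraries, and to 3.88 to 5.08 and 16.7 to 22.0 CPM in BALB. The 9 thymic epithelial markers summed to 9.42 to 10.5 and 38.2 to 49.3 CPM in B6, and to 9.32 to 10.5 and 95.6 to 109 CPM in BALB. Their part in the rise of Trim30a and Trim30d was not tested, and in these bulk libraries fewer cells of a type cannot be told apart from less RNA per cell.

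Genes of the interferon response moved in the same comparison. Of 29 tested, 16 rose in B6 whole thymocytes and 0 fell (median log2 1.11), where 6.89% of all genes rose. Among them Mx1 was at 4.60 ± 0.60 (edgeR, adjusted p = 0.000694), from 2 counts over both B6 DP libraries to 58 over both B6 whole libraries. The interferon regulatory factor Irf7 was at 1.75 ± 0.30 (0.00325). In BALB 21 rose and 0 fell (median 1.31), where 10.6% of all genes rose. Some of these genes, Mx1 among them, passed the filter on low counts through whole libraries alone. These counts and medians thus describe the list and carry no test. DESeq2 called 14 of the 29 in B6 and 16 in BALB. Between strains 1 was higher and 1 lower in BALB DP, and 2 were higher and 1 lower in BALB whole thymocytes, of 29 each, where 13% and 4.59% of all genes were called. DESeq2 called 2 and 0 of the 29, and limma-voom 2 and 3. Of 20 genes of proteins that work with TRIM5, Trim30a or Trim21, among them Tab2, Tab3, Traf6 and Vcp, 1 rose in whole thymocytes in each strain, Irf8, a factor of myeloid and dendritic cells (2.36 ± 0.32 in B6, adjusted p = 0.00079, and 2.52 ± 0.29 in BALB, adjusted p = 0.00017). Over all genes 10.2% and 17.2% were called there, so 1 of 20 is no more than the background. In BALB DP 2 of the 20 were called, where 13% of all genes were. Of these 1 was higher than in B6 DP, Ppia, the cyclophilin that binds retroviral capsids (1.62 ± 0.33, adjusted p = 0.00777), and 1 lower, Tab1, the partner of TAB2 and TAB3 at the kinase TAK1 (−0.95 ± 0.21, adjusted p = 0.0117). Without BALB DP replicate 1, Ppia was 0.69 on the log2 scale, or 1.61-fold in place of 3.07-fold (adjusted p = 0.00129), and Tab1 was −0.66 and lost its call (0.0564). Without B6 DP replicate 2 both calls were lost (adjusted p = 0.0821 for Ppia and 0.0989 for Tab1), and each held in 15 of 17 alternatives, over 2.15e-28 to 0.0821 for Ppia and 5.77e-06 to 0.0989 for Tab1. In whole thymocytes 0 of the 20 passed between strains in edgeR, DESeq2 or limma-voom, and 1 had an unadjusted p under 0.05 in edgeR.

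The third question was whether the strain difference depends on the population. None of the 6 members passed the interaction test in edgeR, 0 had an unadjusted p under 0.05, and DESeq2 and limma-voom called 0 as well, where 0.123% of all genes were called (0.105% positive and 0.0175% negative). The interaction was 0.31 ± 0.26 on the log2 scale for Trim30a (adjusted p = 0.687) and −0.13 ± 0.38 for Trim34a (0.935). For Trim12a it was 1.26 ± 0.98 (adjusted p = 0.669) and for Trim30d 1.17 ± 1.0 (0.742), with 2 and 0 counts over the BALB DP libraries behind them.

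The members were ranked in each group by mean CPM per kb of the union of their exons, since counts grow with length. In B6 DP the order was Trim12a (18.8 to 20.3 CPM per kb), Trim12c (13.8 to 14.1), Trim21 (12.7 to 14.4), Trim30a (7.25 to 7.28), Trim34a (3.51 to 3.53) and Trim30d (0.304 to 0.334), with Trim12c and Trim21 overlapping. In B6 whole it was Trim12a (18.1 to 20.9), Trim30a (14.7 to 16.6), Trim12c (14.4 to 14.5), Trim21 (12.7 to 14.2), Trim34a (5.13 to 6.56), Trim30d (2.19 to 2.66), Trim6 (0.297 to 0.460) and Trim30b (0 to 0.0643). In BALB DP Trim12c led at 12.6 to 20, before Trim21 (8.88 to 12.3), Trim30a (4.34 to 5.28), Trim34a (1.80 to 1.96) and Trim12a (0 to 0.0606). In BALB whole Trim12c led at 20.6 to 20.9, before Trim30a (11.1 to 15.1) and Trim21 (11.6 to 11.8), which overlapped, and Trim34a (2.89), while Trim30d, Trim12a and Trim6 were at most 0.173. Shared stretches that collect few reads lower the values of Trim12c and Trim34a most on this scale.

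The promoters of the cluster were searched for the core of the interferon-stimulated response element, which is GAAA, any 2 bases and GAAA again, on either strand (so that TTTC, any 2 bases and TTTC also counts), in windows from 250 bases before to 50 after each start, from RefSeq on GRCm38.p6. All 10 listed genes had a window, and 7 held a match (Trim5, Trim12a, Trim12c, Trim21, Trim30a, Trim30d and Trim34a), against 3.99% of 27025 genes with a window. Several of the 7 are copies of one sequence. The windows of Trim5 and Trim12a were identical at all 241 bases aligned, and the Trim12 and Trim30 pairs below are close. The 7 are thus not separate promoters, and their count carries no test. Trim21 held 2 overlapping matches. The windows of 2 pairs are shown because one member of each pair was called lower in BALB in both populations and the other in neither. Each is read 5′ to 3′ on its gene's strand, the minus strand, with matches in capitals.
Trim12a (chr7:104315446-104315745): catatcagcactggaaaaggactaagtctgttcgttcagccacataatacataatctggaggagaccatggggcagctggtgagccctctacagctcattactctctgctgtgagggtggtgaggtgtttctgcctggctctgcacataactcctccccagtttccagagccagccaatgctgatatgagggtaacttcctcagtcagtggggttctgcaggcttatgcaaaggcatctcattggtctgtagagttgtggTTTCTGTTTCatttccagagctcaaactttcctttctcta
Trim12c (chr7:104353300-104353599): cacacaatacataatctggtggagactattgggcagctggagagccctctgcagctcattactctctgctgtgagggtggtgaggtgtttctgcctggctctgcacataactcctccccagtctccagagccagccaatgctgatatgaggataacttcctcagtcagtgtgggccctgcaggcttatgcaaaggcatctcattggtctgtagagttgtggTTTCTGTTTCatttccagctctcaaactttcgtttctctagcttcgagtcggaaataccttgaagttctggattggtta
Trim30a (chr7:104465144-104465443): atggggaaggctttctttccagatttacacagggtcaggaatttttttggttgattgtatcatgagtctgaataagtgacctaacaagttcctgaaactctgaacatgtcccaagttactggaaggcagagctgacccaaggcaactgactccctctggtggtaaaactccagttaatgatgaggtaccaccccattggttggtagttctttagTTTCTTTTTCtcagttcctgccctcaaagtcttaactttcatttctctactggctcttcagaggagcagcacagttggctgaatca
Trim30d (chr7:104507800-104508099): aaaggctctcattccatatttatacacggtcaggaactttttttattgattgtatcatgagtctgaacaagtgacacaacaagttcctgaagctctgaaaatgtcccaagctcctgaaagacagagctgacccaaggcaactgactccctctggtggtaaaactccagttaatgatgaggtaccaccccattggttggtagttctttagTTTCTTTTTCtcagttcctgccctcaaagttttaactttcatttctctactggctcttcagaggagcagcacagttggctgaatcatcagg
Aligned, the windows of Trim12a and Trim12c were identical at 247 of 260 bases and those of Trim30a and Trim30d at 276 of 294. The match is TTTCTGTTTC in both Trim12 windows and TTTCTTTTTC in both Trim30 windows. It starts 10 bases after the annotated start of Trim12a and 29 before that of Trim12c, and 36 bases before the start of Trim30a and 41 before that of Trim30d. A second annotated start of Trim30a (window chr7:104446076-104446375) has its match 2 bases after the start. Each pair thus shares its matched letters, at unlike distances from the start. These are letters of the B6 sequence, and a match describes the window and not a binding site.

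Genes whose levels over the 8 libraries were most like each member were named as a description, with Pearson's r of log2 CPM, where the points share strain and population. Trim12a was most like Sipa1l2 (r = 0.995), Nsg2 (0.994) and Arhgap19 (0.992). Trim30a was most like Lilrb3 (0.985), Slfn5 (0.983) and Tpm4 (0.981). Trim30d was most like Mina (0.980), Trim34a (0.975) and Ergic1 (0.967), and Trim34a was most like Mina (0.985), Camkv (0.980) and Ahcy (0.980). Trim12c was most like Lamp2 (0.959), Ankrd55 (0.952) and Zfp560 (0.938), and Trim21 was most like Gm14440 (0.973), Zfp53 (0.957) and Gnb5 (0.931).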

How the data were processed

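RNA of 8 libraries was sequenced, 2 for each of 4 groups read from the library titles. The unit of the deposited values is the raw read count of each gene symbol, made by the authors with HISAT2 2.2.0, mm10 and HTSeq, according to the submitters' processing notes, which also list DESeq2 1.42.1. Per the labels, libraries came from the TruSeq RNA kit v2, which does not mark strand. The annotation, HTSeq's version and the read length were not given. Reads without a gene (43.3% to 48.9% of each file), not aligned (12.8% to 21.2%) or not unique (10.1% to 11.9%) were left out of library sizes.

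The model was fitted in edgeR 4.0.16 (R 4.3.3) to all libraries, with 1 coefficient per group, TMM factors and filterByExpr, which kept 11409 genes and 6 members. The common biological coefficient of variation came to 0.114. A gene was called where its Benjamini-Hochberg value over all tested genes was under 0.05. The code was tested on simulated data. Named were every member, for each tested member the 3 genes of highest r among those averaging at least 1 CPM (prior count 2), and up to 5 called genes of each other list. The members and lists were chosen with earlier results of these data known. A fold against a group at 0 uses a floor of 3 counts over the group. Alternatives were size factors or the Wald test of DESeq2 1.42.0, limma-voom 3.58.1, dropping the filter or making it strict (at least 1 CPM in 2 libraries, mean count at least 50), fitting only the libraries compared, a replicate block, summing copies, and leaving out libraries. For genes of the other lists these were applied after their values were seen. Coding sequences (the longest per gene in GENCODE M21) and promoters were aligned with Biopython 1.88.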

Additional observations from a re-analysis of the deposited data

How the results depend on the processing

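The number of members called was 2 (BALB against B6 in DP), 3 (in whole thymocytes), 2 (whole against DP in B6), 1 (in BALB) and 0 (interaction). The DP strain count was 1 with the strict filter, the DESeq2 Wald test, only the libraries compared or copies summed. The strict filter also gave 1 in whole thymocytes and 1 in B6, and summing gave 1 in B6; the strict filter leaves fewer members tested and summing merges them. Without BALB DP and BALB whole replicate 1 together, the count was 2 for whole against DP in BALB. Leaving out 1 library gave 1 to 3, 2 to 4, 2 to 3, 1 to 2 and 0 to 0 in that order. The replicate block left 2, 3, 2, 1 and 0. Same-numbered libraries did not deviate together over the genes tested (correlations −0.038 to 0.057). These correlations include genes with few counts, so they cannot show whether same-numbered libraries share more than a number.

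Values that changed sign were uncalled in the original fit. For whole against DP in B6, Trim21 (−0.01) was 0 with DESeq2 size factors, 0 without a filter, 0.05 with the strict filter, 0.01 with only the libraries compared and 0.01 without both BALB libraries, and Trim12a (−0.01) was 0.05 with the strict filter and 0.01 with only the libraries compared. Trim30d's interaction was −0.56 in limma-voom, and Trim12c's DP strain difference −0.16 without both BALB libraries. Leaving out 1 library gave −0.1 to 0.07 for Trim21 and −0.12 to 0.09 for Trim12a in B6, −0.15 to 0.54 for Trim12c between strains in DP, −0.1 to 0.41 for Trim21 in BALB, and interactions of −0.04 to 0.65 for Trim12c, −0.3 to 0.06 for Trim34a and −0.1 to 0.41 for Trim21. The cause was not tested.

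Calls over all genes ranged, in the same order, from 509 (without B6 DP replicate 2) to 3493 (without BALB DP replicate 2) against 1482 as reported, 214 (without B6 whole replicate 2) to 1050 (only the libraries compared) against 524, 378 (without B6 whole replicate 1) to 2809 (without both BALB libraries) against 1159, 910 (strict filter) to 3976 (without BALB DP replicate 2) against 1961, and 0 (without B6 whole replicate 2) to 1311 (without BALB DP replicate 2) against 14. Trim30b, Trim6 and Trim30d in BALB had at most 9 counts in a library, which limits what their values can say. The cause of these low counts was not tested.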

Other observations

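Outside the listed genes, 58 other Trim symbols occur in the files and 30 of them were tested. Between strains, 4 of the 30 were called in DP thymocytes by edgeR and 2 by DESeq2, where 13% of all genes were called. Trim41 (0.67 ± 0.16), Trim27 (0.48 ± 0.12) and Trim59 (0.50 ± 0.14) were higher in BALB and Trim65 (−0.77 ± 0.23) was lower. These calls held in 12, 14, 7 and 5 of 17 alternatives. Without BALB DP replicate 1, Trim41 was 0.44, Trim59 0.28 and Trim65 −0.65, none of the 3 called. Each of the 4 lost its call without B6 DP replicate 1 and without B6 DP replicate 2. In whole thymocytes 0 of the 30 passed between strains in edgeR, DESeq2 or limma-voom, with 5 at an unadjusted p under 0.05 in edgeR.

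Trim26, a ligase encoded in the MHC region, rose in whole thymocytes of B6 (0.93 ± 0.25, edgeR, adjusted p = 0.0385) and of BALB (1.32 ± 0.24, edgeR, adjusted p = 0.00317). It was 1 of 30 in each strain, where 6.89% and 10.6% of all genes rose. The B6 call held in 9 of 17 alternatives and was lost without any one of the B6 DP, B6 whole and BALB whole libraries (edgeR, adjusted p 0.06 to 0.268). The BALB call held in 17 of 17. In BALB, Trim59 (−0.58 ± 0.14, edgeR, adjusted p = 0.0142) and Trim41 (−0.55 ± 0.15, edgeR, adjusted p = 0.0299) fell, where 6.59% of all genes fell, and neither was called without BALB DP replicate 1 (−0.36 and −0.33). They held in 12 and 8 of 17 alternatives, and both were also lost without BALB whole replicate 1 or 2, and Trim41 without B6 whole replicate 1 or 2.

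The pseudogene Trim30e-ps1, next to Trim30d, had 0 counts in all B6 libraries, 2 over both BALB DP libraries and 5 over both BALB whole libraries.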
